A study of Mus musculus with 64 samples.

Results

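The reactive astrocyte genes examined here were *Gfap*, *Vim*, *Serpina3n*, *Timp1*, *Lcn2*, *Cd44*, *Osmr*, *S1pr3*, *Cp* and *Steap4*. They were chosen by name, by matching the Ensembl identifiers of the deposited expression table to these symbols in the GENCODE vM21 annotation, and all 10 were found among the 18432 genes of the table. Strand-specific RNA libraries had been made from the frontal cortex and the hippocampus of *Cyfip2* +/R87C knock-in (KI) mice, which carry the Arg87Cys change of the actin regulator CYFIP2 on a single allele, and of their wild-type (WT) littermates, all on the C57BL/6N strain. The sample labels name poly(A) selection, whereas the study's methods name a total RNA kit. Mice were sampled at postnatal week (PWK) 1, 7, 14 and 28, and each of the 16 combinations of region, age and genotype held 4 libraries, 64 in all. The KI mice served as a model of West syndrome, an infantile epilepsy, and the libraries address how the brain transcriptome of these mice departs from that of WT mice with age. Each age and genotype was represented by 4 mice, from each of which both regions were taken, and both sexes were used in the study. All cells of the KI mice carry the allele, and the libraries hold the RNA of the whole dissected tissue.

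Astrocytes answer injury, seizures and inflammation in the brain by enlarging their intermediate filament skeleton and by secreting or displaying a set of proteins that resting astrocytes make little of. Cytokines of the IL-6 family act on these cells through shared receptors, the kinase JAK and the transcription factor STAT3, and several genes of the reactive set are known targets of that route. *Gfap* and *Vim* encode the intermediate filament proteins. *Serpina3n*, a serine protease inhibitor, *Timp1*, an inhibitor of matrix metalloproteinases, and *Lcn2*, a carrier of bacterial iron chelators, encode secreted proteins. *Cd44* encodes the hyaluronan receptor, *Osmr* the receptor chain for oncostatin M and *S1pr3* a receptor for sphingosine-1-phosphate. *Cp* encodes ceruloplasmin, a copper-containing ferroxidase, and *Steap4* a metalloreductase. Several of these genes are not used by astrocytes alone. *Vim*, *Cd44*, *Timp1* and *S1pr3* are also made by vascular and meningeal cells, and *Cp* and *Steap4* by other epithelial or vascular cells. In a bulk tissue library, a difference in the number of cells of a type and a difference in RNA per cell cannot be told apart.

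In GRCm38 with the GENCODE vM21 annotation, *Gfap* lay at chr11:102887336-102900912 (minus strand), *Serpina3n* at chr12:104406729-104414329 (plus strand), *Timp1* at chrX:20870166-20874735 (plus strand) and *Steap4* at chr5:7960457-7982213 (plus strand). *Vim*, *Lcn2* and *Cd44* shared chromosome 2, at chr2:13573927-13582826 (plus strand), chr2:32384633-32388252 (minus strand) and chr2:102811141-102901665 (minus strand). *Osmr* lay at chr15:6813577-6874969 (minus strand), *Cp* at chr3:19957054-20009145 (plus strand) and *S1pr3* at chr13:51408639-51422797 (plus strand). *Timp1* sits inside *Syn1*, a neuronal gene of the opposite strand, with 0 exon bases in common. *Cp* shared 108 exon bases with *Hps3* and *S1pr3* shared 45 with the long noncoding RNA *Gm32834*, both on the opposite strand, so that the values of these members rest on the strand information of the libraries.

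The sequences before the transcription start are shown for *Gfap*, *Serpina3n* and *Timp1*, which differed between genotypes at both late ages in the hippocampus, and for *Steap4*, which held 2 of the motifs searched. They are the 250 bases upstream of the RefSeq start in GRCm38.p6, read 5′ to 3′ on the strand of the gene, and capitals mark a motif match. The RefSeq start of *Gfap* lies inside the GENCODE span of the gene.
Gfap (chr11:102897201-102897450, minus strand): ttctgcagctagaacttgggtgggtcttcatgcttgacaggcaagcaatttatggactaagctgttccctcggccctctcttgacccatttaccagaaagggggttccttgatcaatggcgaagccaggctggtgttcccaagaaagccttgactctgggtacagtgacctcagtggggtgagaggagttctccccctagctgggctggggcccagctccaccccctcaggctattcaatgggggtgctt
Serpina3n (chr12:104406458-104406707, plus strand): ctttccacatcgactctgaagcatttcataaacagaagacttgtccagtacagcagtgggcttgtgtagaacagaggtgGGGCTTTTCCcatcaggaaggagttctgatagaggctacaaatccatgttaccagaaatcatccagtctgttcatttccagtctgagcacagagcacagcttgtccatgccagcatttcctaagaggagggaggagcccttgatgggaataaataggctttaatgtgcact
Timp1 (chrX:20869916-20870165, plus strand): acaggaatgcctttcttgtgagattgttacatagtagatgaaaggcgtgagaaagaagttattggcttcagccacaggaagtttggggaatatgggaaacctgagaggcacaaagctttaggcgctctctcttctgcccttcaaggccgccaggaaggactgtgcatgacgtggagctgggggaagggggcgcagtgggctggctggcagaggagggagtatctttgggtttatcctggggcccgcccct
Steap4 (chr5:7960222-7960471, plus strand): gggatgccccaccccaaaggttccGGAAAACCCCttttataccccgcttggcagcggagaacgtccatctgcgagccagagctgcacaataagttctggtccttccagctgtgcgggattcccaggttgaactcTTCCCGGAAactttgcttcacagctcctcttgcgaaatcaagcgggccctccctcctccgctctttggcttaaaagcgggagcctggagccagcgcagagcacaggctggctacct
Both strands of the 300-base windows from 250 bases before to 50 after the start were searched for 3 motifs, the STAT palindrome TTCNNNGAA, the AP-1 motif TGANTCA and the NF-kB motif (GGG and TTTCC with 2 bases of any kind between them), in 11 windows of the 10 members and in all 32851 windows of the RefSeq table. The STAT letters stood in 8.3% of all windows and in 2 member windows. In *Steap4* they read TTCCCGGAA from position -116, and in *Gfap* they read TTCCAGGAA from position -2, across the start. The AP-1 letters stood in 7.81% of all windows and in those of *Cp* and *Osmr*. The NF-kB letters stood in 1.63% of all windows and in 3 member windows, *Serpina3n*, *Vim* and *Steap4*. No motif stood in the windows of *Timp1*, *Cd44*, *S1pr3* or *Lcn2*. These matches describe letters in the windows, and binding was not measured.

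The values are DESeq2-normalized abundances estimated with Salmon, referred to below as normalized values, and their totals were 29.2 M to 32.6 M per library. Differences between groups were tested with limma on log2(normalized value + 1) over all genes with a mean of at least 1, and a gene passed the test at a Benjamini-Hochberg adjusted p (padj) below 0.05. Because 1 was added before taking logarithms, fold changes understate the differences of low genes such as *Lcn2*, *Steap4* and *Timp1*. The error after a log2 fold change is its standard error (SE). All 14 genes of resting astrocytes were in the table, with none listed at 0 at PWK 14 or 28. The markers of microglia, endothelial cells, pericytes, fibroblasts, ependymal cells and dividing cells were not listed at 0 either. Their presence in whole tissue does not assign the members to a cell type. One library stood apart, replicate 1 of the hippocampal KI group at PWK 14, and the values of the members it bears on are given with and without it. The markers of choroid plexus epithelium, a tissue that adjoins the hippocampus, summed to 363 to 131539 across the 32 hippocampal libraries, and their values are given beside the members that moved with them.

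Levels of different members were compared per kilobase of exon (normalized value divided by exon length) in the WT groups. *Gfap* was the highest in both regions at every age. In the WT hippocampus at PWK 28 it stood at 2214 ± 106 (SD, n = 4) per kb, followed by *Serpina3n* at 664 ± 58.5, *Vim* at 290.5 ± 10.9, *Cp* at 78.1 ± 15.6 and *S1pr3* at 54.7 ± 3.62. The remaining 5 members were low. *Cd44* stood at 19.8 ± 5.57 per kb, *Osmr* at 15.6 ± 0.998, *Steap4* at 11.3 ± 4.57, *Timp1* at 5.93 ± 2.29 and *Lcn2* at 4.79 ± 2.20. In that order *Cd44* and *Osmr*, *Osmr* and *Steap4*, and *Timp1* and *Lcn2* lay within their SDs of each other. In the WT cortex at PWK 28 *Gfap* stood at 753 ± 151 per kb, and *Vim* (214 ± 32.03) and *Serpina3n* (195 ± 11.9) lay within their SDs of each other. These orders compare gene models of different length and carry no test.

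**Figure D1:**
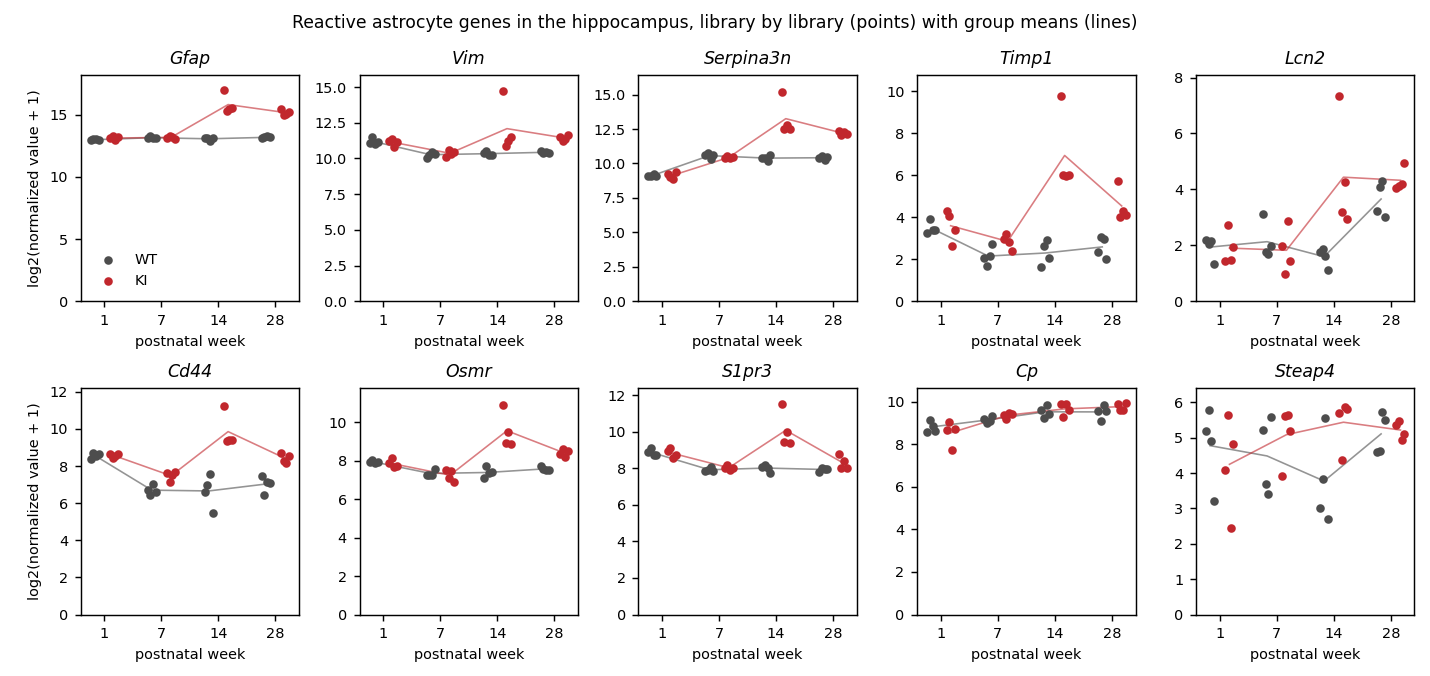
Log2(normalized value + 1) of each member in the 32 hippocampal libraries, by postnatal week, with 1 point per library, WT in grey and KI in red, and lines through the group means. The KI points separated upward at PWK 14 for 8 members, with replicate 1 as the top point for these 8.

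In the hippocampus at PWK 14, 6 of the 10 members were higher in KI than in WT mice and none was lower. The filament gene *Gfap*, the secreted protease inhibitors *Serpina3n* and *Timp1* and the 3 receptors *Cd44*, *Osmr* and *S1pr3* passed the test, against 7.64% of all genes called higher and 7.95% lower (15.6% either way) in this comparison. The median log2 fold change of the members was 2.46, and that of all genes was 0.006. The libraries of the genotypes did not overlap for 8 members, against 23.8% of all genes.

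*Gfap* stood at 8842, 8972, 7502 and 9231 in the WT libraries (normalized values, replicates 1 to 4) and at 131431, 40059, 45879.7 and 47169 in the KI libraries. Every KI library lay above every WT library, the first far above the other 3, and the log2 fold change was 2.75 ± 0.32 (padj = 0.00129). *Vim* stood at 1319, 1437, 1183 and 1232 in WT and at 27342, 1910.4, 2368 and 2881 in KI libraries. The groups did not overlap, but the first KI library was 11.5 times the mean of the other 3, and the difference of 1.75 ± 0.71 (padj = 0.124) did not pass the test. Without that library *Vim* passed it, with a smaller log2 fold change (0.87, padj = 0.00208). *Vim* also passed in a fit of all 64 libraries (padj = 3.07e-05), which takes a single spread per gene from all 16 groups. The log2 SD of *Vim* was 1.79 in this KI group and 0.12 in its WT group. The padj of that fit therefore does not measure the spread of the groups compared.

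Among the secreted proteins, *Serpina3n* stood at 1350.4, 1318, 1167 and 1551 in WT and at 37797, 5933, 6975 and 5807 in KI libraries. All 4 KI libraries lay well above the WT range, and the log2 fold change was 2.86 ± 0.52 (padj = 0.00754). *Timp1* was low in WT libraries, at 2.10, 5.12, 6.46 and 3.12, and stood at 877, 63.8, 62.3 and 62.5 in KI libraries. KI replicates 2, 3 and 4 were nearly equal, the first was 13.9 times their mean, and the log2 fold change of 4.65 ± 0.81 (padj = 0.00594) was the largest among the members. *Lcn2* was close to the limit of detection in WT libraries, at 2.35, 2.68, 2.08 and 1.1899, and stood at 160.1, 8.21, 18.3 and 6.70 in KI libraries. The groups did not overlap, and the difference of 2.84 ± 0.85 (padj = 0.0502) narrowly missed the threshold. It passed without KI replicate 1 (1.88, padj = 0.0227), although the log2 fold change was then smaller, and in the fit of all 64 libraries (padj = 0.000164). The log2 SD of *Lcn2* was 2.01 in this KI group and 0.33 in its WT group, so the limit given for *Vim* in that fit applies here too.

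The receptors moved in the same direction. *Cd44* stood at 95.4, 128, 192 and 42.7 in WT and at 2412, 663, 672 and 687 in KI libraries, with a log2 fold change of 3.20 ± 0.52 (padj = 0.00437). The WT libraries were spread widely, and KI replicates 2 to 4 were nearly level with each other. *Osmr* stood at 135, 209, 161 and 167 in WT and at 1929, 487, 726 and 463 in KI libraries (2.17 ± 0.40, padj = 0.00761), and *S1pr3* at 272, 285, 263 and 215 and 2918, 705, 1006 and 659 (2.07 ± 0.40, padj = 0.00995). Both were higher in 4 of 4 KI libraries than in any WT library. The metal-handling members did not pass in this fit. *Cp* stood at 791, 605, 911 and 679 in WT and 939, 620.3, 941 and 790.5 in KI libraries, and the interval of its log2 fold change ran from -0.22 to 0.50. Without KI replicate 1 the log2 fold change of *Cp* was 0.067 (padj = 0.817). *Steap4* differed by 1.66 ± 0.61 (padj = 0.0956), and its groups overlapped. Without KI replicate 1 its log2 fold change was 1.57 (padj = 0.135). It passed in the fit of all 64 libraries (padj = 0.0121) and without WT replicate 3 (2.25, padj = 0.0193).

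Replicate 1 of the hippocampal KI group at PWK 14 held the highest KI value for 8 of the 10 members. Relative to the mean of KI replicates 2 to 4, it was 14.5 times as high for *Lcn2*, 13.9 for *Timp1*, 11.5 for *Vim*, 6.06 for *Serpina3n*, 3.69 for *S1pr3*, 3.58 for *Cd44*, 3.45 for *Osmr* and 2.96 for *Gfap*, while *Cp* (1.198) and *Steap4* (1.16) were close to the mean. In this library the summed value of 9 microglial markers was 37244, against 11915 to 17426 in the other KI libraries and 10841 to 13019.5 in WT libraries. The sum of 6 markers of dividing cells was 4093, against 340.1 to 518 and 204 to 300.02. The sum of 7 pericyte markers was 10180.0, against 6152 to 6623 and 5631 to 6010.1, and that of 8 endothelial markers was 9007, against 6291 to 6399.5 and 6215 to 6565. Neutrophil markers, of which 3 of 7 were in the table, summed to 8.83, within the WT range of 4.98 to 13.9, with S100a8 listed at 0 in at least 1 library of each genotype. The 14 resting astrocyte genes summed to 316191 in this library, to 279087 to 299544 in the other KI libraries and to 244526 to 280992 in WT libraries. The part of these cell types in the member values was not tested. Without the library 8 members passed the test, against 8.98% of all genes called higher in that fit. The 6 named above were among them, *Gfap* with a log2 fold change of 2.36 (padj = 3.63e-06), *Serpina3n* with 2.21 (padj = 1.25e-05), *Timp1* with 3.70 (padj = 0.000333), *Cd44* with 2.74 (padj = 0.00208), *Osmr* with 1.72 (padj = 0.000559) and *S1pr3* with 1.59 (padj = 0.000355).

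**Figure D2:**
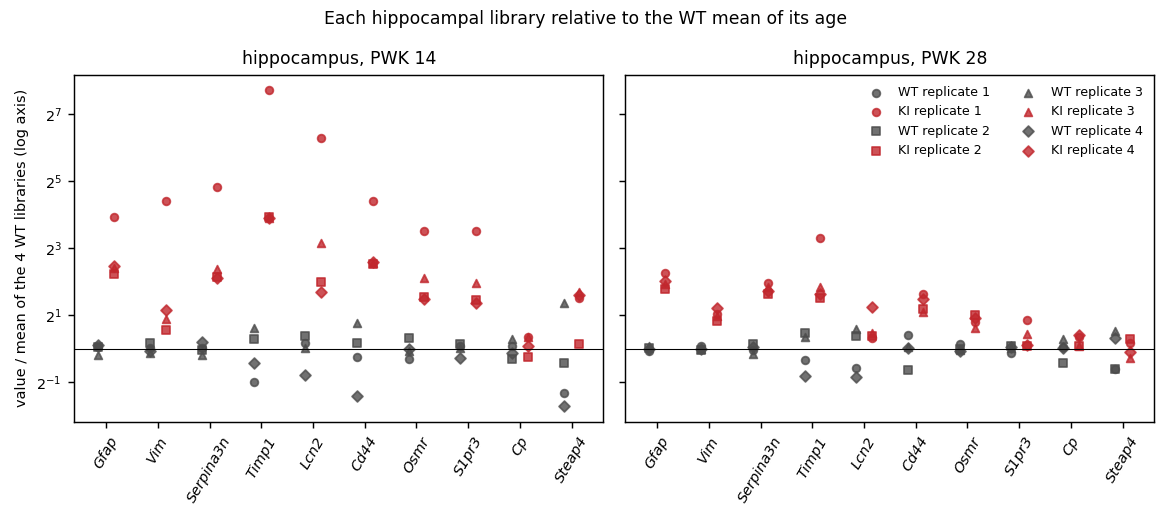
Each hippocampal library's value divided by the mean of the 4 WT libraries of its age, on a log2-spaced axis, at PWK 14 (left) and PWK 28 (right), with WT in grey, KI in red and 1 marker shape per replicate number. KI replicate 1 was the top point for 8 members at PWK 14, whereas at PWK 28 the 4 KI libraries lay close together for *Gfap*, *Vim*, *Serpina3n* and *Osmr*.

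In the hippocampus at PWK 28, 6 members were higher in KI mice and none was lower, namely *Gfap*, *Vim*, *Serpina3n*, *Timp1*, *Cd44* and *Osmr*, against 8.92% of all genes called higher and 6.91% lower (15.8% either way). The same 6 were those whose libraries did not overlap, against 21.5% of all genes, and the median log2 fold change of the members was 0.92 beside 0.0037 for all genes. *Gfap* stood at 8803, 9349.5, 9894 and 9316 in WT and at 44711, 32067, 35273 and 37929 in KI libraries. The spread within each group was small beside the gap between them, and the log2 fold change was 2.00 ± 0.085 (padj = 3.35e-07). *Serpina3n* (1338, 1515, 1227 and 1403 in WT, 5264, 4199, 4911 and 4497 in KI) changed by 1.78 ± 0.080 (padj = 3.89e-07). *Vim* (1451, 1329, 1369 and 1361 in WT, 2839, 2434, 2683 and 3214 in KI) changed by 1.01 ± 0.076 (padj = 2.32e-05). These 3 had the smallest errors of the set.

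The receptors *Cd44* and *Osmr* also rose at this age. *Cd44* stood at 178, 85.8, 138 and 136 in WT and at 413, 306, 286 and 374 in KI libraries (1.38 ± 0.20, padj = 0.00123), and *Osmr* at 207, 187, 185 and 179 and 328, 382, 293 and 356 (0.83 ± 0.10, padj = 0.00052). Every KI library exceeded every WT library for both. *Timp1* stood at 4.12, 7.25, 6.70 and 3.01 in WT and at 52.1, 15.1, 18.7 and 16.3 in KI libraries, replicate 1 again being the highest, and changed by 1.95 ± 0.43 (padj = 0.0112). *S1pr3*, which had passed at PWK 14, stood at 222, 259, 244 and 251 in WT and 437, 257, 333 and 261 in KI libraries. Its groups overlapped and the difference was 0.37 ± 0.16 (padj = 0.138). *Lcn2* (8.35, 16.2, 18.8 and 6.99 in WT, 15.7, 16.3, 17.4 and 29.5 in KI) differed by 0.67 ± 0.36 (padj = 0.24), *Cp* by 0.25 ± 0.14 (padj = 0.249) and *Steap4* by 0.11 ± 0.29 (padj = 0.843). At this age 6 of 9 microglial markers and 8 of 14 resting astrocyte genes were also higher in KI mice, where 8.92% of all genes were called higher. The summed values were 15073 to 17824 in KI against 12446 to 13373 in WT libraries for the microglial markers. For the resting astrocyte genes they were 290578 to 332893 against 247315 to 263473. Their part in the member values was not tested.

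**Figure D3:**
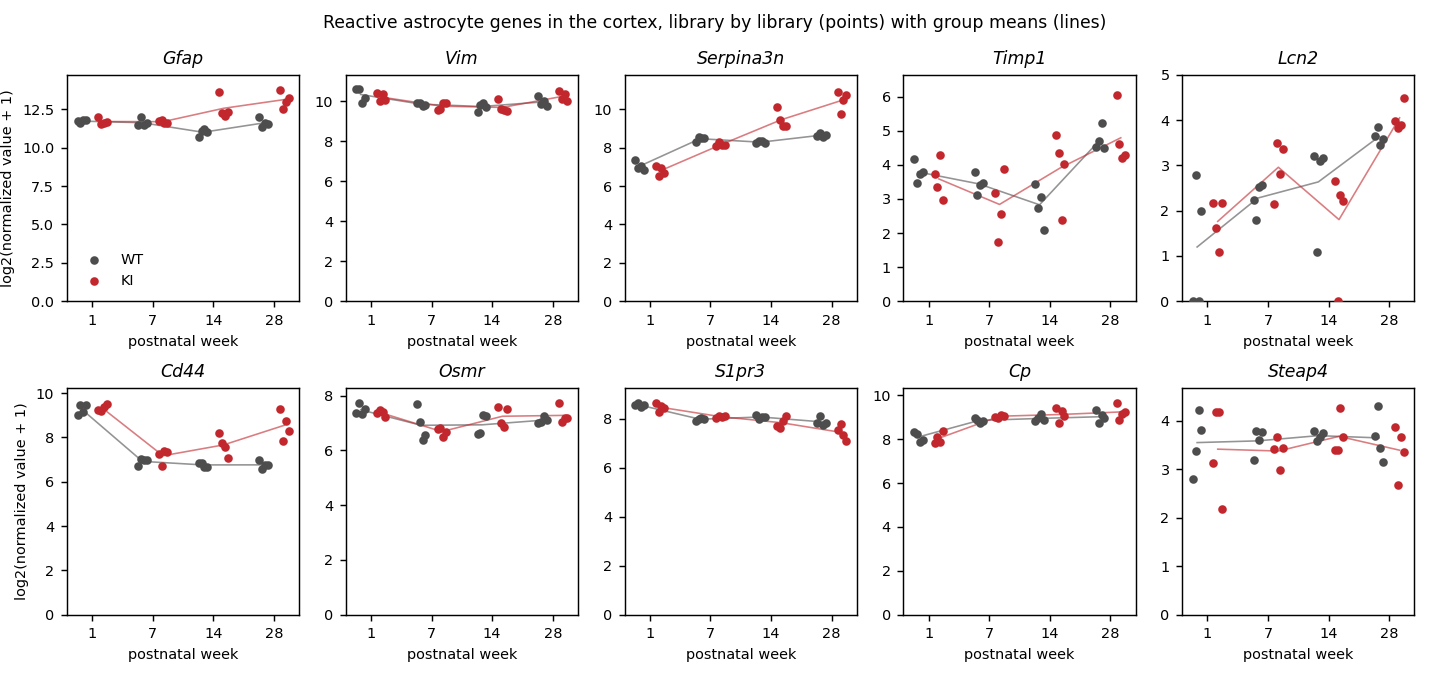
Log2(normalized value + 1) of each member in the 32 cortical libraries, by postnatal week, with 1 point per library, WT in grey and KI in red, and lines through the group means. *Gfap*, *Serpina3n* and *Cd44* were higher in all 4 KI libraries at PWK 14 and at PWK 28, whereas *Osmr*, *Cp* and *S1pr3* overlapped between the genotypes at both of these ages.

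In the frontal cortex at PWK 14, 3 members were higher in KI mice and none was lower, against 2.48% of all genes called higher and 2.7% lower (5.18% either way). These were *Gfap*, *Serpina3n* and *Cd44*, which were also the 3 members whose libraries did not overlap (14.2% of all genes). *Gfap* stood at 1675, 2141, 2433 and 2041 in WT and at 12404, 4842, 4322 and 5221 in KI libraries (1.56 ± 0.27, padj = 0.0112). *Serpina3n* stood at 298, 328, 319.6 and 299.97 in WT and at 1094, 702, 559 and 564 in KI libraries (1.17 ± 0.18, padj = 0.00627). *Cd44* stood at 115, 113, 101 and 102 and 296, 217, 191 and 136 (0.91 ± 0.20, padj = 0.0282). KI replicate 1 was the highest of the 4 for each of them, and for 8 of the 10 members in this group. Whether cortical and hippocampal replicate 1 came from the same mouse is not given in the sources used here. Without the cortical KI replicate 1, *Gfap* changed by 1.22 (padj = 0.000628), *Serpina3n* by 0.96 (padj = 0.00103) and *Cd44* by 0.72 (padj = 0.0331). The call of *Cd44* was lost in 5 of the 8 fits that left out a library, namely KI replicate 2 and each of the 4 WT libraries, with padj up to 0.0785.

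None of the other members passed the test in the cortex at PWK 14. *Vim* stood at 714, 912, 985 and 839.9 in WT and 1095, 781, 759 and 735 in KI libraries, and its log2 fold change of -0.044 ± 0.13 (padj = 0.898) had an interval from -0.34 to 0.25. *Timp1* (9.80, 5.60, 7.32 and 3.28 in WT, 28.1, 19.3, 4.26 and 15.4 in KI) differed by 1.08 ± 0.52 (padj = 0.27), and its libraries overlapped. *Lcn2* was listed at 0 in KI replicate 2 and stood between 1.11 and 8.21 in the WT libraries, too low for its difference to be resolved (-0.83 ± 0.69, padj = 0.555). *S1pr3* was lower in KI on average (285, 251, 268 and 266 in WT, 207, 197, 238 and 271 in KI), with a difference of -0.23 ± 0.11 (padj = 0.278). *Osmr* (0.31 ± 0.22, padj = 0.466), *Cp* (0.18 ± 0.14, padj = 0.524) and *Steap4* (-0.015 ± 0.29, padj = 0.986) overlapped as well.

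In the frontal cortex at PWK 28 the same 3 members passed the test and were higher in KI mice, against 12.2% of all genes called higher and 10% lower (22.2% either way), and again they were the 3 without overlap (25.8% of all genes). *Serpina3n* stood at 391, 431, 374 and 409.9 in WT and at 1938, 855, 1418 and 1699.6 in KI libraries (1.81 ± 0.21, padj = 0.000434). *Cd44* stood at 124, 93.7, 107 and 108 and 619, 229, 434 and 317 (1.79 ± 0.26, padj = 0.00116), and *Gfap* at 4062, 2553, 3114 and 2977 and 14031, 5846, 8135 and 9789 (1.52 ± 0.23, padj = 0.00148). KI replicate 1 was the highest of its group for 8 members and KI replicate 2 the lowest for *Gfap*, *Serpina3n* and *Cd44*. *S1pr3* stood at 226, 273, 211 and 224 in WT and at 185, 217, 161 and 133 in KI libraries, with a difference of -0.44 ± 0.16 (padj = 0.0745), opposite in sign to that in the hippocampus. It passed the test when KI replicate 2 was left out (-0.55, padj = 0.0217). *Vim* (0.28 ± 0.13, padj = 0.132), *Osmr* (0.18 ± 0.16, padj = 0.471), *Cp* (0.22 ± 0.17, padj = 0.378), *Timp1* (0.057 ± 0.40, padj = 0.935), *Lcn2* (0.42 ± 0.28, padj = 0.323) and *Steap4* (-0.25 ± 0.38, padj = 0.672) did not pass. The median log2 fold change of the members was 0.25 at PWK 14 and 0.25 at PWK 28 in the cortex, beside -0.0018 and -0.0034 for all genes.

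**Figure D4:**
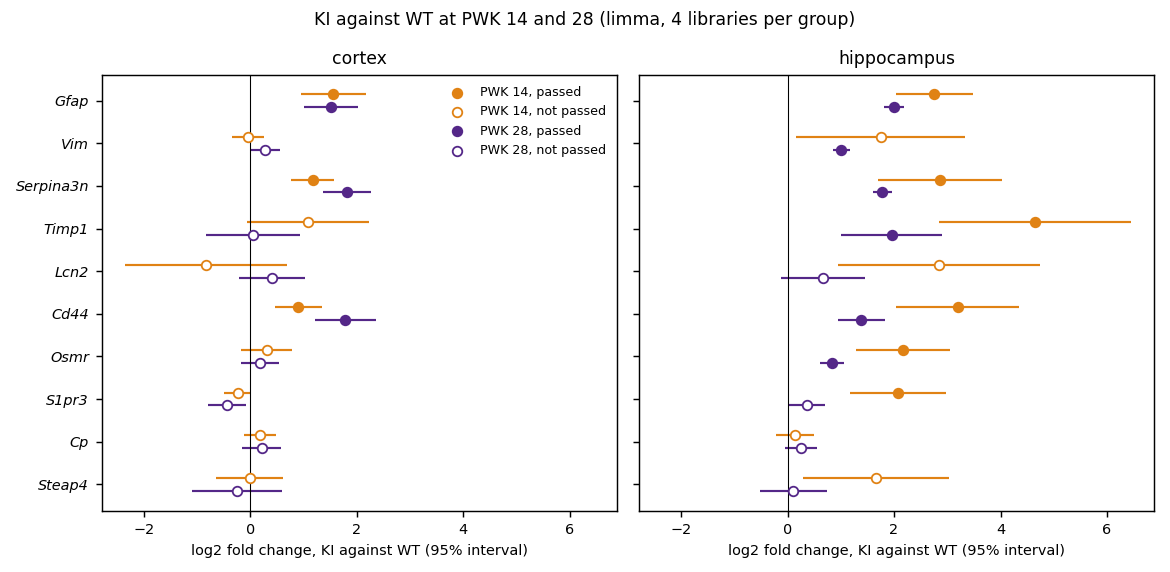
Log2 fold change of each member between KI and WT mice (points) with its 95% interval (lines) at PWK 14 (orange) and PWK 28 (purple) in the cortex (left) and hippocampus (right). Filled points passed the limma test and open points did not, and *Gfap*, *Serpina3n* and *Cd44* were the members filled in all 4 comparisons.

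Scaling the libraries to equal totals instead of using the deposited size factors changed the direction of 1 member in the 8 comparisons of genotypes, *Steap4* in the cortex at PWK 14, which did not pass under either scaling. The share of all called genes that were higher in KI mice moved more, from 47.8% to 60.4% in the cortex at PWK 14, from 54.8% to 43.7% in the cortex at PWK 28 and from 56.3% to 40.6% in the hippocampus at PWK 28.

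No member passed the test at PWK 1 or PWK 7 in either region, where limma called 0.00546% (cortex, PWK 1), 0.00545% (cortex, PWK 7), 0.0109% (hippocampus, PWK 1) and 0.0218% (hippocampus, PWK 7) of all genes. At an unadjusted p below 0.05 the counts of members were 0, 2, 0 and 2 in that order. The share of all genes at that unadjusted threshold is not given, so these counts are not read as a result about the members. At PWK 1 the libraries of the genotypes overlapped for every member, whereas those of 3.15% (cortex) and 3.26% (hippocampus) of all genes did not. *Gfap* at PWK 1 stood at 7872, 8312, 8534 and 8021 in WT and 9024, 9831, 7836 and 9339 in KI hippocampus, and at PWK 7 at 8947, 9823, 8763 and 9129 and 9199, 10321, 9283 and 8621. The genotypes overlapped at both ages, with intervals of the log2 fold change of -0.00071 to 0.27 and -0.10 to 0.16. *Cd44* in the hippocampus at PWK 7 was the 1 member whose libraries did not overlap there, against 3.87% of all genes. It stood at 103, 85.4, 132 and 97.5 in WT and at 195, 139, 181 and 202 in KI libraries, and the difference of 0.78 ± 0.16 (padj = 0.441) did not survive adjustment. In the cortex at PWK 7 *Serpina3n*, *Cp* and *S1pr3* did not overlap (4.62% of all genes). *Serpina3n* was lower in KI libraries (313, 376, 365 and 361 in WT, 269.9, 308, 276 and 279 in KI) with a log2 fold change of -0.32 ± 0.084 (padj = 0.333), the sign opposite to that of the later ages. *Cp* and *S1pr3* differed by 0.19 ± 0.069 (padj = 0.474) and 0.10 ± 0.077 (padj = 0.809).

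Whether the effect of the KI allele differed between ages was tested as an interaction. Between PWK 7 and PWK 14 it became larger for 6 members in the hippocampus (of all genes 10.3% were called, 5.34% with a larger effect) and for 2 in the cortex (3.18% and 1.27%). In the hippocampus the changes in effect were 3.95 ± 0.92 (padj = 0.0127) for *Timp1*, 3.00 ± 0.57 (padj = 0.00382) for *Serpina3n*, 2.73 ± 0.35 (padj = 0.00024) for *Gfap*, 2.42 ± 0.58 (padj = 0.015) for *Cd44*, 2.26 ± 0.46 (padj = 0.00528) for *Osmr* and 1.96 ± 0.45 (padj = 0.0108) for *S1pr3*. In the cortex they were 1.49 ± 0.32 (padj = 0.0169) for *Gfap* and 1.49 ± 0.21 (padj = 0.00125) for *Serpina3n*. Between PWK 14 and PWK 28 no member passed in either region, and limma called 0% of all genes in both. At an unadjusted p below 0.05 there were 6 members in the hippocampus and 2 in the cortex, counts for which no share of all genes is given. In a fit of all 64 libraries 4 members passed in the hippocampus, where 2.55% of all genes did, and 0 in the cortex (4.97%). In the hippocampus 9 of 10 estimates were negative, among them *S1pr3* (-1.70 ± 0.47, padj = 0.176), *Timp1* (-2.69 ± 0.97, padj = 0.274) and *Cd44* (-1.81 ± 0.60, padj = 0.236), and 0 members passed without the library that stood apart, which enters both age comparisons through the PWK 14 group. Without it the 3 estimates were -1.22, -1.75 and -1.35. The count from PWK 7 to PWK 14 was 7 without it (11.3% of all genes called). *Vim* passed in addition, and the changes in effect of the other 6 ran from 1.48 (*S1pr3*) to 3.00 (*Timp1*), with 2.33 for *Gfap*, 2.35 for *Serpina3n*, 1.96 for *Cd44* and 1.81 for *Osmr*.

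The effect in the hippocampus was compared with that in the cortex in the same way. At PWK 14 it was larger in the hippocampus for *S1pr3* (2.30 ± 0.45, padj = 0.0142) and *Cd44* (2.29 ± 0.60, padj = 0.04996), 2 members against 2.85% of all genes called and 1.64% called in that direction, and 9 of 10 estimates were positive. *Osmr* (1.86 ± 0.49, padj = 0.0518) and *Timp1* (3.56 ± 1.03, padj = 0.0717) missed the threshold. At PWK 28 it was larger in the hippocampus for *Vim* (0.73 ± 0.16, padj = 0.0127), 1 member against 4.57% of all genes called and 2.39% called in that direction, while *Serpina3n* (-0.033 ± 0.24, padj = 0.967) and *Cd44* (-0.40 ± 0.36, padj = 0.612) had estimates near or below 0, with intervals from -0.54 to 0.48 and from -1.15 to 0.35. *S1pr3*, whose estimates had opposite signs in the regions at that age, differed by 0.80 ± 0.23 (padj = 0.0612). A fit with the replicate number as a block was also made, and it called 6 members at PWK 14 and 3 at PWK 28, where the same fits called 3.93% and 6.84% of all genes. Both regions came from each mouse, but whether equal replicate numbers mark the same mouse is not given in the sources used here. The block may therefore not pair the regions of a mouse. The count at PWK 14 was 6 without the hippocampal KI replicate 1 (3.37% of all genes), with estimates of 1.82 for *S1pr3* and 1.83 for *Cd44*. It was 4 without the cortical KI replicate 1 and 1 in 11 of the other 14 fits that left out a library, and the shares of all genes called in these fits are not given.

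In WT mice the members did not follow a common course with age. From PWK 1 to PWK 7, 5 members changed in the cortex and 8 in the hippocampus, where 65.3% and 61.3% of all genes did. *Cd44* fell in both, from 509, 699.8, 573 and 711 to 104, 129, 125 and 125 in the cortex (-2.35 ± 0.12, padj = 1.05e-08), and its log2 fold change in the hippocampus was -1.87 ± 0.14 (padj = 4.2e-07). *Serpina3n* rose in both, from 538, 553, 593 and 544 to 1594, 1724, 1267 and 1537 in the hippocampus (1.45 ± 0.085, padj = 6.95e-08), and its log2 fold change in the cortex was 1.43 ± 0.12 (padj = 7.9e-07). *Vim* had a log2 fold change of -0.93 ± 0.11 (padj = 2.11e-05) in the hippocampus and -0.49 ± 0.14 (padj = 0.0082) in the cortex, and *S1pr3* of -0.93 ± 0.10 (padj = 1.01e-05) and -0.58 ± 0.076 (padj = 2.85e-05). *Cp* rose in both (0.75 ± 0.11, padj = 6.36e-05 in the cortex, 0.34 ± 0.12, padj = 0.0279 in the hippocampus). *Timp1* and *Osmr* fell in the hippocampus (-1.33 ± 0.35, padj = 0.00595 and -0.60 ± 0.10, padj = 0.000319). The change of *Gfap* was small, 0.16 ± 0.044 (padj = 0.00733) in the hippocampus and -0.11 ± 0.10 (padj = 0.364) in the cortex, where it did not pass.

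From PWK 7 to PWK 28 the share of members that changed in WT mice was near that of all genes. *Lcn2* rose in both regions, from 3.69, 2.49, 4.70 and 4.92 to 11.5, 13.4, 9.97 and 10.95 in the cortex (1.36 ± 0.34, padj = 0.0152) and from 7.74, 2.37, 2.19 and 2.91 to 8.35, 16.2, 18.8 and 6.99 in the hippocampus (1.53 ± 0.45, padj = 0.0458), where the ages overlapped. *Timp1* rose in the cortex, from 12.9, 7.63, 9.52 and 9.98 to 22.2, 25.2, 36.1 and 21.4 (1.295 ± 0.28, padj = 0.00651). These were 2 members in the cortex and 1 in the hippocampus, against 22.2% and 14.7% of all genes, and these calls were lost when the spread was estimated from all 64 libraries.

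Between the regions, *Gfap* and *Serpina3n* were higher in the WT hippocampus than in the WT cortex at every age. The log2 differences of *Gfap* were 1.26 ± 0.048 (padj = 1.4e-08) at PWK 1, 1.53 ± 0.099 (padj = 3.02e-07) at PWK 7, 2.07 ± 0.10 (padj = 2.94e-08) at PWK 14 and 1.58 ± 0.11 (padj = 4.67e-07) at PWK 28. Those of *Serpina3n* ran from 1.77 at PWK 28 to 2.10 at PWK 7. *Vim* was also higher at each age, by 0.40 to 0.84, and *Cp* by 0.30 to 0.71. *Timp1* went the other way at PWK 7 (-1.29 ± 0.37, padj = 0.0152) and PWK 28 (-2.15 ± 0.33, padj = 0.000278), and *Cd44* at PWK 1 (-0.70 ± 0.12, padj = 0.000692). *Osmr* was higher in the hippocampus at PWK 1 (0.45 ± 0.11, padj = 0.00766) and PWK 28 (0.47 ± 0.10, padj = 0.00346), *S1pr3* at PWK 1 (0.30 ± 0.092, padj = 0.0266) and *Steap4* at PWK 28 (1.46 ± 0.35, padj = 0.00574). In all, 7, 5, 4 and 7 members passed at PWK 1, 7, 14 and 28, against 34.7%, 40.8%, 34.6% and 37.8% of all genes. *Timp1* was thus lower in WT hippocampus than in WT cortex at PWK 28, whereas the KI hippocampal libraries at that age (52.1, 15.1, 18.7 and 16.3) overlapped the KI cortical libraries (65.5, 23.6, 17.5 and 18.5).

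*Steap4* varied between hippocampal libraries together with the markers of choroid plexus epithelium, and *Cp* less so. In the WT hippocampus at PWK 14 the sum of 8 such markers (*Ttr*, which encodes transthyretin, and 7 others) was 2546, 18822, 110990.0 and 2206, and *Steap4* stood at 7.12, 13.3, 45.7 and 5.46 in the same libraries, highest where the markers were highest. *Cp* stood at 791, 605, 911 and 679 there, also highest in replicate 3 but lowest in replicate 2. In the KI hippocampus at PWK 14 the sum was 2683, 19909, 105016 and 91806 and *Steap4* stood at 51.1, 19.7, 57.6 and 54.6. KI replicate 1 thus held a *Steap4* value near that of replicates 3 and 4 with a marker sum near the lowest of the WT libraries. None of the 8 markers passed the test between genotypes at either late age. In a fit with the log2 sum of these markers as a covariate, chosen after the data were seen, *Steap4* differed by 1.28 (padj = 0.111) and *Cp* by 0.11 (padj = 0.69) at PWK 14, while 8 members passed, *Vim* (2.14, padj = 0.0471) and *Lcn2* (3.22, padj = 0.0293) joining the 6 given above. At PWK 28 the 6 members passed in that fit as well. The share of all genes called in that fit is not given, so these counts are not read as a result about the members. In the cortex the marker sum was 109.5 to 1226 in 31 libraries and 22808 in WT replicate 2 at PWK 28, which also held the highest *Steap4* value of its group, 18.8.

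**Figure D5:**
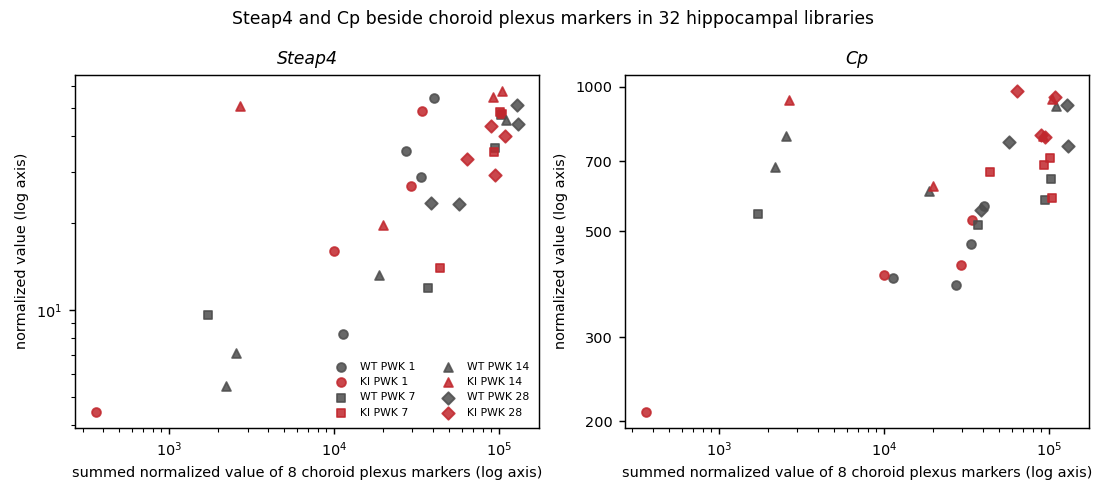
Normalized value of *Steap4* (left) and *Cp* (right) against the summed value of 8 choroid plexus markers in the 32 hippocampal libraries, both axes logarithmic, with WT in grey, KI in red and 1 marker shape per age. *Steap4* was lowest, 4.45, in the library with the lowest marker sum, 363, and 1 KI library at PWK 14 with a sum of 2683 stood above the others of like sum at 51.1.

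Of the genes of IL-6 family signalling, to which the *Osmr* product belongs, 19 of 21 were in the table, and the ligand genes *Osm* and *Il6* were not among them. In the hippocampus 9 were higher in KI mice at PWK 14 and 5 at PWK 28, with none lower, and the median log2 fold changes of the 19 were 0.41 and 0.19. In the cortex 1 was higher and 1 lower at PWK 14, and 2 were higher and 5 lower at PWK 28. Of all genes, the hippocampal comparisons called 7.64% higher and 7.95% lower at PWK 14 and 8.92% higher and 6.91% lower at PWK 28, and the cortical ones 2.48% higher and 2.7% lower at PWK 14 and 12.2% higher and 10% lower at PWK 28. The 2 higher genes in the cortex at PWK 28 were thus a share near that of all genes. Without the hippocampal library that stood apart, 8 were higher at PWK 14, where 8.98% of all genes were, and the median was 0.34. *Socs3*, a feedback inhibitor of the pathway, rose in the hippocampus at PWK 14 (2.76 ± 0.57, padj = 0.0126) and PWK 28 (0.82 ± 0.20, padj = 0.0172) and fell in the cortex at PWK 28 (-1.29 ± 0.35, padj = 0.0242). *Bcl3*, a coregulator of NF-kB, rose in the hippocampus at both ages (3.44 ± 0.52, padj = 0.00339 at PWK 14, 1.93 ± 0.59, padj = 0.0474 at PWK 28). *Clcf1*, a cytokine of the family, and the kinase gene *Pim1* rose in the hippocampus at PWK 14 (1.89 ± 0.43, padj = 0.0182 and 1.57 ± 0.18, padj = 0.00115) and fell in the cortex at PWK 28 (-0.73 ± 0.23, padj = 0.0433 and -0.73 ± 0.23, padj = 0.046). Without the library that stood apart, the log2 fold changes at PWK 14 in the hippocampus were 2.18 for *Socs3*, 3.02 for *Bcl3*, 1.42 for *Clcf1* and 1.54 for *Pim1*, and all 4 passed.

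Of 26 other genes known from reactive astrocytes, 10 were higher and 2 lower in the KI hippocampus at each of PWK 14 and 28, and in the cortex 2 were higher at PWK 14 and 4 were higher and 4 lower at PWK 28. Their median log2 fold changes in the hippocampus were 0.93 and 0.40. Without the library that stood apart, 12 were higher and 2 lower in the hippocampus at PWK 14, with a median of 0.49 (8.98% of all genes were higher). The cortical shares at PWK 28 were near those of all genes called in that comparison, 12.2% higher and 10% lower. In the cortex at PWK 14, 2.48% of all genes were higher. In the hippocampus 7.64% of all genes were higher and 7.95% lower at PWK 14, and 8.92% and 6.91% at PWK 28. The 2 lower genes in the hippocampus were thus a share near that of all genes. *Aspg*, an asparaginase, rose in all 4 comparisons, by 2.15 at PWK 14 and 2.52 at PWK 28 in the cortex and by 3.20 and 1.31 in the hippocampus (padj from 5.19e-05 to 0.00368). The matrix protein gene *Tnc* rose in the hippocampus at both ages (2.62 ± 0.32, padj = 0.00162, then 1.402 ± 0.22, padj = 0.00207) and in the cortex at PWK 28 (3.02 ± 0.64, padj = 0.00802), as did *Nes*, the intermediate filament gene of neural progenitors (1.53 ± 0.16, padj = 0.000972, 0.69 ± 0.19, padj = 0.0327 and 2.13 ± 0.33, padj = 0.0018). The chemokine gene *Cxcl10* rose in the hippocampus (3.04 ± 0.87, padj = 0.0443 at PWK 14, 2.67 ± 0.66, padj = 0.0197 at PWK 28). Without the library that stood apart, the values at PWK 14 were 2.11 for *Cxcl10*, 2.95 for *Aspg*, 2.28 for *Tnc* and 1.38 for *Nes*, and all 4 passed. Among the resting astrocyte genes 3 were higher and 1 lower in the hippocampus at PWK 14, and 2 were higher and 4 lower in the cortex at PWK 28, the 2 higher again a share near that of all genes. *Aqp4*, the water channel, and *Kcnj10*, a potassium channel, rose in the hippocampus at PWK 28 (0.62 ± 0.074, padj = 0.000376 and 0.63 ± 0.075, padj = 0.000381), and *Glul*, glutamine synthetase, fell in the hippocampus at PWK 14 (-0.48 ± 0.11, padj = 0.0164) and in the cortex at PWK 28 (-0.38 ± 0.074, padj = 0.00548). *S100b*, a calcium-binding protein, rose in the hippocampus (0.22 ± 0.067, padj = 0.0489 at PWK 14, 0.43 ± 0.047, padj = 0.00023 at PWK 28). *Aqp4* passed in 2 and *Kcnj10* in 3 of the 4 comparisons at PWK 14 and 28. Without the library that stood apart, *Glul* stood at -0.42 and still passed, and *S100b* at 0.22 and did not (padj = 0.063). *Aqp4* stood at 0.87 and *Kcnj10* at 0.64 in that fit of the hippocampus at PWK 14, and both passed. In it 5 of the 14 resting astrocyte genes were higher and 1 lower, where 8.98% of all genes were higher.

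Relatives and partners of the members were counted in the same way. Their counts stand against 2.48% of all genes called higher and 2.7% lower in the cortex at PWK 14, and 12.2% and 10% there at PWK 28. In the hippocampus the shares were 7.64% and 7.95% at PWK 14, and 8.92% and 6.91% at PWK 28. Of the *Serpina3* genes clustered beside *Serpina3n*, 4 of 10 were in the table, and 3 of these rose in the hippocampus at PWK 14 and 2 at PWK 28. *Serpina3g* had means of 217 in KI and 48.4 in WT hippocampus at PWK 28 (2.12 ± 0.23, padj = 0.000236), and *Serpina3h* of 38.2 and 4.68 at PWK 14 (3.06 ± 0.50, padj = 0.00467). These genes are close copies of each other, reads can be divided between them, and their values are uncertain on that account. Of the other inhibitors of metalloproteinases 1 of 3, *Timp2*, rose in all 4 comparisons, by 0.55 (hippocampus, PWK 28) to 1.29 (cortex, PWK 28). Of the other sphingosine-1-phosphate receptors *S1pr2* rose in the cortex and the hippocampus at PWK 14 (0.61 ± 0.15, padj = 0.043 and 0.77 ± 0.18, padj = 0.0228). Of 10 iron-handling genes *Hmox1*, heme oxygenase 1, rose in all 4 comparisons, by 0.57 to 1.34. *Has3*, a hyaluronan synthase among 5 genes of CD44 ligands, fell at PWK 28 in the cortex (-1.01 ± 0.27, padj = 0.0228) and in the hippocampus (-0.60 ± 0.15, padj = 0.023), and the intermediate filament gene *Synm* fell in the hippocampus (-0.44 ± 0.097, padj = 0.0164 at PWK 14, -0.46 ± 0.082, padj = 0.00371 at PWK 28).

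Markers of vascular and meningeal cells, which also make several members, were uneven. Their counts stand against the shares of all genes called, 2.48% higher and 2.7% lower in the cortex at PWK 14, 12.2% higher and 10% lower in the cortex at PWK 28, 7.64% higher and 7.95% lower in the hippocampus at PWK 14 and 8.92% higher and 6.91% lower in the hippocampus at PWK 28. Of 8 fibroblast markers 3 were higher and 1 lower in KI cortex at PWK 14, with summed values of 2661 to 4940.2 in KI and 2674 to 3995 in WT libraries, and 3 were higher and 1 lower in the hippocampus at that age (4864 to 8094 and 4603 to 10389). *Lum*, a collagen-binding proteoglycan, rose in all 4 comparisons, by 0.71 to 1.36, while the growth factor gene *Igf2* fell in the cortex (-0.80 ± 0.18, padj = 0.0316 at PWK 14, -1.79 ± 0.16, padj = 0.000138 at PWK 28). *Col1a1* and *Col3a1*, fibrillar collagen genes, each rose in 2 comparisons, *Col1a1* at PWK 14 in the cortex (1.13 ± 0.27, padj = 0.0394) and the hippocampus (0.72 ± 0.16, padj = 0.0165), and *Col3a1* in the cortex at PWK 28 (1.29 ± 0.36, padj = 0.0272) and the hippocampus at PWK 14 (1.17 ± 0.32, padj = 0.0372). Without the library that stood apart *Col3a1* stood at 0.95 there and did not pass (padj = 0.0517). Of 8 endothelial markers 3 were lower in KI cortex at PWK 14, among them the transporter gene *Slco1a4* (-0.28 ± 0.066, padj = 0.035), which was higher at PWK 28 in the cortex (0.46 ± 0.14, padj = 0.0384) and the hippocampus (0.53 ± 0.084, padj = 0.00194). Of 7 pericyte markers 3 were higher in KI hippocampus at PWK 28, among them *Notch3* (0.69 ± 0.16, padj = 0.0131), which passed in 3 of the 4 comparisons. Without the hippocampal library that stood apart, *Notch3* stood at 0.75 at PWK 14 and passed. In that fit 2 of 7 pericyte markers were higher and 1 lower, and 1 of 8 endothelial markers was higher. *Aif1*, the microglial marker IBA1, rose at PWK 28 in the cortex (1.14 ± 0.17, padj = 0.00126) and the hippocampus (0.61 ± 0.14, padj = 0.012), and it was the 1 microglial marker of 9 that passed in the cortex. Without the hippocampal library that stood apart, 2 of 9 microglial markers were higher at PWK 14, where none had passed with it (8.98% of all genes were higher in that fit). The part of these cell types in the member values was not tested.

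Of 8 neuronal markers, 2 were higher and 1 lower in KI cortex at PWK 14 and at PWK 28, 1 was higher and 1 lower in the hippocampus at PWK 14, and 3 were higher and 1 lower there at PWK 28. Of all genes, 2.48% were called higher and 2.7% lower in the cortex at PWK 14, and 12.2% and 10% there at PWK 28. In the hippocampus 7.64% were called higher and 7.95% lower at PWK 14, and 8.92% and 6.91% at PWK 28. A count of 1 in lists this short cannot be told apart from these shares. *Gad2*, an enzyme of GABA synthesis, rose in all 4 comparisons, by 0.75 and 1.15 in the cortex and by 0.49 and 0.51 in the hippocampus at PWK 14 and PWK 28. *Slc17a7*, the vesicular glutamate transporter VGLUT1, changed by 0.89 ± 0.098 (padj = 0.000367) in the cortex and 0.40 ± 0.050 (padj = 0.000471) in the hippocampus at PWK 28. *Nefl*, the neurofilament light chain, fell in the cortex (-0.33 ± 0.068, padj = 0.0215 at PWK 14, -0.60 ± 0.10, padj = 0.00241 at PWK 28). *Syt1*, a synaptic vesicle calcium sensor, fell in the hippocampus (-0.37 ± 0.082, padj = 0.0158 at PWK 14, -0.20 ± 0.050, padj = 0.0212 at PWK 28). Of 6 markers of radial glia, 2 were lower in KI cortex at PWK 14, 1 was higher and 2 lower there at PWK 28, and 1 was higher and 1 lower in the hippocampus at each age. Among them *Hes5*, a target of Notch signalling, fell at PWK 14 in the cortex (-0.51 ± 0.12, padj = 0.033) and the hippocampus (-1.62 ± 0.39, padj = 0.0224). Without the library that stood apart, *Gad2* (0.52), *Syt1* (-0.31) and *Hes5* (-1.29) still passed in the hippocampus at PWK 14. Their part in the member values was not tested.

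The genes whose pattern was most like that of *Gfap* were sought by Pearson correlation of log2(value + 1) over the 32 libraries of a region, which share ages, genotypes and, in the hippocampus, the library that stood apart. In the hippocampus they were *Npy* (r = 0.96), *Gldn* (0.96), *Slc6a5* (0.95), *Ptgs1* (0.94) and *Trak2* (0.94), among 14100 genes with a mean of at least 50. *Serpina3n* ranked 14 (0.92) and *Osmr* 65 (0.87). In the cortex they were *Gldn* (0.91), *Chga* (0.90), *Lum* (0.89), *Igfbp5* (0.88) and *Pmepa1* (0.88) among 13958 genes. There *Serpina3n* ranked 328 (0.69) and *S1pr3* was inversely related (-0.56). These correlations are descriptions of the libraries and carry no test.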

How the data were processed

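Bulk RNA sequencing libraries of frontal cortex and hippocampus (64 libraries, 4 per group) were analysed. The authors estimated transcript abundance for GRCm38 with Salmon (0.11.2), imported it into R (3.6.0) and deposited DESeq2 (1.19.11) normalized values, according to the submitters' processing notes. These deposited values are a normalized signal per gene, not counts. The study's methods and the labels differ on the library kit (total RNA in the methods, poly(A)-selected mRNA in the labels) and the tool versions. Between 23.5% and 48.6% of low values per library lay within 0.1 of a whole read at the best of many trial step sizes. Chance gives 20% for a single fixed step and more for the best of many. Reads could therefore not be recovered, and the sequencing depth is unknown. The totals were 29.2 M to 32.6 M, and every gene had a mean of at least 4.25.

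Symbols and positions were taken from GENCODE vM21, to which 18420 of 18432 identifiers matched. Values were tested as log2(value + 1) with limma 3.58.1 (trend, R 4.3.3), without covariates, using the libraries of the groups compared, with Benjamini-Hochberg adjustment over all genes with a mean of at least 1. SE is the moderated standard error. Replicates were separate mice. The fits were tested on simulated data. In each other gene list, the genes that passed in at least 2 of the 4 genotype comparisons at PWK 14 and 28 were named, up to the 4 with the largest change. The members and lists were chosen with earlier results of these data known. Alternatives were a pseudocount of 5, no filter, a filter at a mean of 50, equal library totals, a fit of all 64 libraries, a replicate block, leaving out each library and, chosen after the data were seen, a choroid plexus covariate. Promoters are from RefSeq.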

Additional observations from a re-analysis of the deposited data

Results flagged for a closer look

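Each member in each of the 16 groups was examined for a library whose distance from its nearest neighbour took up most of the range of the 4 (Dixon's test), 160 sets of values in all, of which 17 were set apart. Chance sets apart about 1 in 20 such groups. Of these, 7 were replicate 1 of the hippocampal KI group at PWK 14, the highest of its group for *Gfap* (131431, next 47169), *Vim* (27342, next 2881), *Serpina3n* (37797, next 6975), *Lcn2* (160.1, next 18.3), *Cd44* (2412, next 687), *Timp1* (877, next 63.8) and *S1pr3* (2918, next 1006). Replicate 1 of the cortical KI group at PWK 14 was set apart for *Gfap* (12404) and *Vim* (1095), and replicate 1 of the KI groups at PWK 28 for *Timp1* in the cortex (65.5) and the hippocampus (52.1).

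The other 6 were single low or high libraries. They were *Lcn2* in WT replicate 2 of the cortex at PWK 14 (1.11), in KI replicate 4 of the hippocampus at PWK 28 (29.5) and in WT replicate 1 of the hippocampus at PWK 7 (7.74), *Gfap* in WT replicate 2 of the cortex at PWK 1 (3132), *Cd44* in WT replicate 1 of the cortex at PWK 7 (104) and *Osmr* in WT replicate 4 of the hippocampus at PWK 7 (187).

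The effect of the KI allele differed between groups by a test of the difference itself (limma interaction) in 11 cases. Between PWK 7 and PWK 14 it rose in the hippocampus by 3.95 for *Timp1*, 3.00 for *Serpina3n*, 2.73 for *Gfap*, 2.42 for *Cd44*, 2.26 for *Osmr* and 1.96 for *S1pr3* on the log2 scale, and in the cortex by 1.49 for *Gfap* and 1.49 for *Serpina3n*. It was larger in the hippocampus than in the cortex by 2.30 for *S1pr3* and 2.29 for *Cd44* at PWK 14 and by 0.73 for *Vim* at PWK 28.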

How the results depend on the processing

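The counts of members that passed between genotypes stayed within 1.5 times their value under every alternative run. In the fit of all 64 libraries *Vim* (padj = 3.07e-05), *Lcn2* (padj = 0.000164) and *Steap4* (padj = 0.0121) passed in addition in the hippocampus at PWK 14. That fit takes a single spread per gene from all 16 groups, whereas *Vim* and *Lcn2* were far more spread in this KI group than in its WT group. Without 1 library the counts of members that passed between genotypes were 2 to 3 (cortex, PWK 14), 3 to 4 (cortex, PWK 28), 6 to 8 (hippocampus, PWK 14) and 6 to 6 (hippocampus, PWK 28). The interaction counts were less stable. With all 64 libraries in 1 fit, 4 members passed between PWK 28 and 14 in the hippocampus (0 otherwise), and the regions differed for 8 members at PWK 14 (otherwise 2) and 0 at PWK 28 (otherwise 1). The share of all genes called between regions in that fit is not given, so the count of 8 is not read as a result about the members. At PWK 14 the regions differed for 1 member without a filter and 1 with equal totals, and at PWK 28 for 2 with a filter at 50. Without 1 library the counts were 1 to 6 and 1 to 3 between regions, 2 to 4 (cortex, PWK 14 against 7, 4 without KI replicate 4 at PWK 14), 6 to 7 in the hippocampus, 0 to 1 (cortex, PWK 28 against 14, 1 without KI replicate 2 at PWK 28) and 0 to 0 in the hippocampus. In WT, the counts from PWK 7 to 28 fell to 0 with a filter at 50 or the fit of all 64 libraries in both regions, and were 0 to 1 in the hippocampus without 1 library, 0 when WT replicate 1, 3 or 4 at PWK 28 or 2, 3 or 4 at PWK 7 was left out. Neither *Lcn2* nor *Timp1* reached the filter at 50 in these WT groups. The counts between regions fell to 4 at PWK 1 and 3 at PWK 7 in the fit of all 64 libraries. The cause of these shifts was not tested.

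Replicate numbers were not taken to pair the samples, because the rule that every pair of a comparison correlates above 0.1 was not met. Libraries of different numbers were not compared, so the rule cannot decide whether equal numbers mark the same mouse. Deviations of same-numbered cortical and hippocampal libraries correlated above 0.1 in 17 of 32 pairs (mean 0.14), with 4 of 4 in PWK 28 KI and PWK 1 WT, 3 of 4 in PWK 1 KI and PWK 14 KI, 1 of 4 in PWK 14 WT and 0 of 4 in PWK 28 WT, and those of KI and WT in 10 of 32 (mean 0.026). With the replicate block the regions differed for 6 members at PWK 14 and 3 at PWK 28, the WT hippocampal count from PWK 7 to 28 was 0, and *Vim* passed in the cortex at PWK 28. The block moved no other count by over 1.5 times.

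Signs that turned belonged to members that did not pass. Equal totals gave *Steap4* 0.015 in the cortex at PWK 14. The choroid plexus covariate turned 6 in the hippocampus at PWK 1, 0.073 for *Vim*, 0.085 for *Serpina3n*, 0.22 for *Lcn2*, 0.042 for *Cp*, 0.094 for *S1pr3* and 0.31 for *Steap4*. Leaving out 1 library gave log2 fold changes of -0.13 to 0.030 for *Gfap*, -0.038 to 0.12 for *Cd44*, -0.16 to 0.019 for *Cp* and -0.39 to 0.28 for *Steap4* (cortex, PWK 1), -0.40 to 0.025 for *Osmr* (cortex, PWK 7), -0.18 to 0.023 for *Vim* and -0.21 to 0.081 for *Steap4* (cortex, PWK 14), -0.36 to 0.25 for *Timp1* (cortex, PWK 28), -0.13 to 0.056 for *Vim*, -0.088 to 0.087 for *Serpina3n*, -0.32 to 0.11 for *Lcn2*, -0.077 to 0.040 for *Cd44*, -0.12 to 0.43 for *Timp1*, -0.12 to 0.074 for *S1pr3* and -1.05 to 0.071 for *Steap4* (hippocampus, PWK 1), -0.020 to 0.066 for *Gfap*, -0.66 to 0.025 for *Lcn2* and -0.18 to 0.017 for *Osmr* (hippocampus, PWK 7) and -0.059 to 0.31 for *Steap4* (hippocampus, PWK 28). *Lcn2*, *Timp1* and *Steap4* had low values in WT libraries, and the sequencing depth behind them is unknown.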
